A study of Homo sapiens with 9 samples.

Results

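The interferon-stimulated genes described here are 50 genes whose RNA is raised when a cell responds to interferon. The list was matched by gene symbol to a table of 27548 gene rows, and all 50 symbols were found. Of these, 47 stood on 1 row, and for the 3 on 2 rows the row with the highest mean over the 9 libraries was used. The genes fall into 10 groups by role. A mean log2 CPM of 1 or higher was reached by 49 of them, and CMPK2 was the exception.

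The 9 RNA sequencing libraries were made from MDA-MB-231, a human breast cancer cell line of the triple-negative kind. In CTL+siCTL (libraries S1 to S3), control cells received a universal negative control siRNA. In TLX+siCTL (S4 to S6), cells made to overexpress TLX, the nuclear receptor that NR2E1 encodes, received the same control siRNA. In TLX+siTLX (S7 to S9), the overexpressing cells received an siRNA against TLX. All cells were transfected for 48 h with DharmaFECT 4, so the controls carry the transfection and an siRNA too. No control cells received the siRNA against TLX, so effects of that siRNA itself and of lower TLX cannot be told apart. The sources used here do not give how TLX was overexpressed, whether the lines are single clones, or the siRNA sequences. Control samples have PC3 in their titles as well, a term the labels leave unexplained. Nor do the labels tell whether replicates of a group came from separate cultures, so the p-values reflect only the spread among these samples, which may be technical. Below, values "with the siRNA" compare TLX+siTLX with TLX+siCTL, and values "against the controls" compare TLX+siTLX with CTL+siCTL.

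Interferons are secreted proteins made by cells that sense viral or misplaced nucleic acid. Type I and type III interferons bind their receptors and activate the kinases JAK1 and TYK2, which phosphorylate STAT proteins such as STAT2. STAT2 and IRF9 are parts of ISGF3, a complex that binds the interferon-stimulated response element in promoters and switches on genes that sense RNA, stop translation, degrade RNA or block virus entry and exit. Interferon gamma acts through gamma-activated sites. Breast cancer lines can express many of these genes without added interferon.

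The manipulated gene was measured first. For NR2E1, log2 CPM was -4.59, -4.28 and -4.50 in S1 to S3, 0.28, -0.84 and 0.23 in S4 to S6 and -2.61, -3.40 and -1.77 in S7 to S9. The groups did not overlap, with TLX+siCTL highest, CTL+siCTL lowest and TLX+siTLX in between. The log2 fold change of NR2E1 was 4.35 ± 0.47 (SE) in TLX+siCTL (limma adjusted p = 0.000133), -2.48 ± 0.47 with the siRNA (adjusted p = 0.00494) and 1.86 ± 0.47 against the controls (adjusted p = 0.0134). The last call was lost without S1 (1.80, adjusted p = 0.0549) and on the scale of log2(CPM + 1), where the difference was 0.18 (adjusted p = 0.382). The first 2 changes kept their calls under every alternative, but their size depended on the setting. They ranged from 0.92 to 4.71 in TLX+siCTL and from -2.9 to -0.74 with the siRNA. NR2E1 had few reads in CTL+siCTL and TLX+siTLX, and its mean log2 CPM was only -0.11 in TLX+siCTL.

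Most interferon-stimulated genes were lower in TLX-overexpressing cells than in control cells. Of the 50 genes, 35 fell and 3 rose in TLX+siCTL against CTL+siCTL at an adjusted p under 0.05 (limma on the deposited log2 CPM values, adjusted over all 27548 rows), and 12 did not pass. Across all rows 15.1% fell and 15% rose, and among the 12564 expressed rows (mean log2 CPM 1 or higher) the shares were 27.4% and 29.3%. The genes' median log2 fold change was -0.72, beside 0.01 over those 12564 rows. At least 2-fold falls were seen in 18 of the 50 genes and in 3.92% of all rows. Every TLX+siCTL library lay below every control library for 38 of the 50 genes, which was so for 21% of all rows and 34.8% of the expressed rows. The 50 genes were chosen with earlier results of these data known, so these shares are descriptions and not an independent test of the list. In these bulk samples, fewer cells expressing a gene and less RNA per cell cannot be told apart. When only these 6 libraries were fitted, 5 genes rose instead of 3. With each library's median over all rows set equal, the falls of IFIT5, GBP3 and EPSTI1 lost their calls and UBE2L6 was called as a rise (0.31, adjusted p = 0.0027).

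Many of the genes were higher again in the cells given the siRNA against TLX. In TLX+siTLX against TLX+siCTL, 26 genes rose, 4 fell (IFIT2, PLSCR1, IFI44L and TRIM25) and 20 did not pass, where 12.7% of all rows rose and 10.9% fell. Among the expressed rows, 23.8% rose and 22% fell. The median was 0.32, and 3 genes (DDX60, OAS1 and GBP2) rose at least 2-fold, as did 2.66% of all rows. With each library's median over all rows set equal, 17 genes rose and 7 fell. The rises of IFIH1, OAS2, IFIT1, USP18, MX2, PARP9, PARP14, IFI35 and XAF1 lost their calls there, and IRF1, OASL and IFITM1 were called as falls (-0.19, -0.21 and -0.29). With the medians over the expressed rows set equal instead, 24 genes rose and 4 fell. With only these 6 libraries fitted 17 rose, and the calls of IFIH1, OAS2, IFIT1, USP18, MX2, PARP9, IFI35, IFI44 and SAMD9L were lost, as was the fall of IFIT2. The TLX+siCTL libraries enter both comparisons, so the 2 sets of fold changes are not independent of each other.

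Against the control cells, TLX+siTLX cells had lower levels of many of the genes. In TLX+siTLX against CTL+siCTL, 27 genes fell, 11 rose and 12 did not pass, where 17% of all rows fell and 17.7% rose (31.2% and 32.4% of the expressed rows). The median was -0.28. At least 2-fold falls were called for 9 genes (3.95% of all rows) and at least 2-fold rises for 4, BST2, CMPK2, IFI27 and SAMD9L (4.64% of all rows). Library S9 stood furthest from the others of its group over all rows, and without it 27 genes fell and 11 rose in this comparison, and 25 rose and 4 fell in TLX+siTLX against TLX+siCTL. The moderated F test over the 3 groups called 44 of the 50 genes, where it called 40.7% of all rows and 75.1% of the expressed rows. The 6 it did not call were EIF2AK2, IFITM2, DTX3L, TRIM22, EPSTI1 and LGALS3BP.

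The libraries of a group resembled each other over the 50 genes. Relative to each gene's mean in CTL+siCTL, the median gene stood at -0.66, -0.74 and -0.78 (log2) in S4, S5 and S6, and at -0.22, -0.29 and -0.37 in S7, S8 and S9. The control libraries stood at 0.03, -0.01 and -0.01. All TLX+siTLX libraries lay between the control and the TLX+siCTL libraries. Over the expressed rows the same medians were between -0.01 and 0.01 in all 9 libraries. Between 41 and 43 of the genes were below their control mean in the TLX+siCTL libraries, and between 34 and 36 in the TLX+siTLX libraries.

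**Figure D1:**
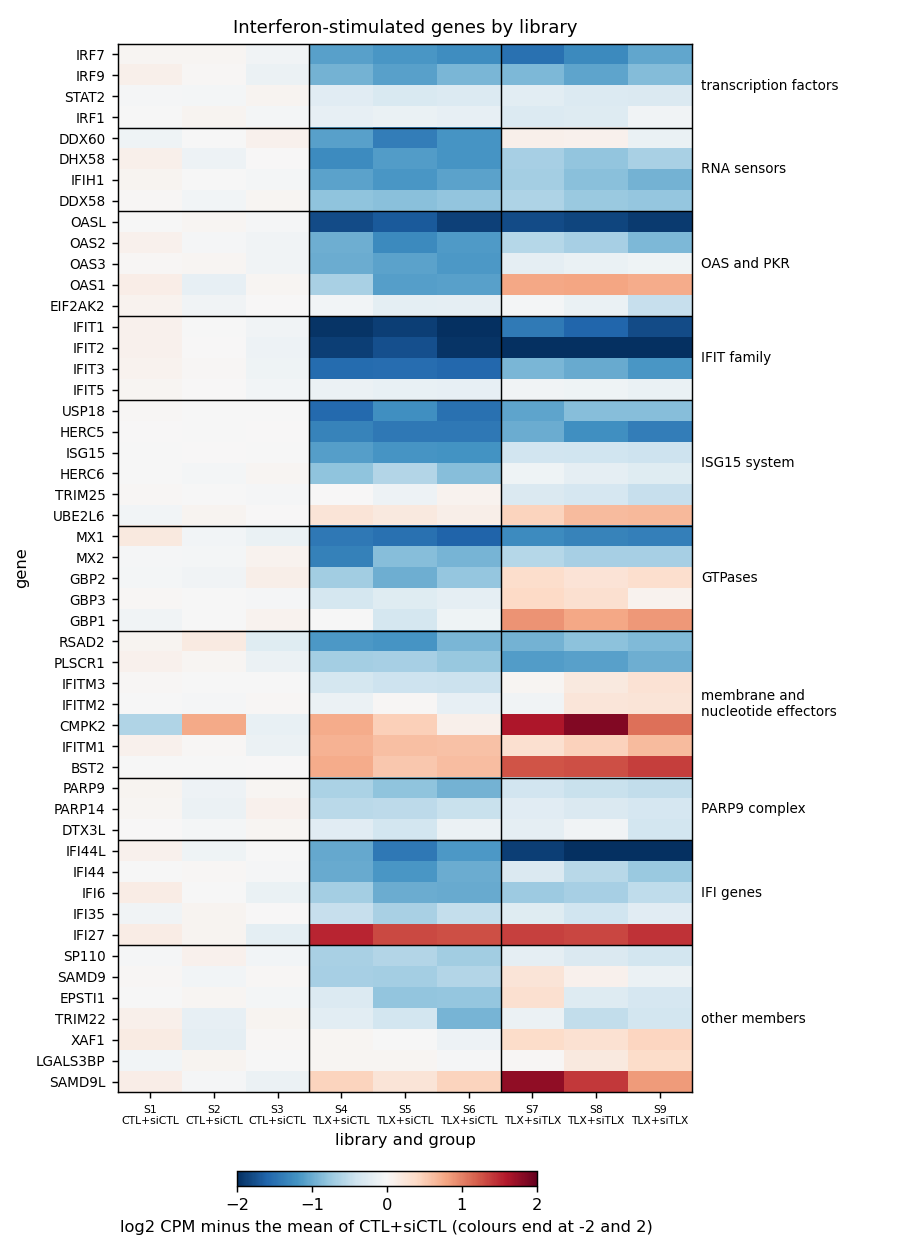
Log2 CPM of the 50 genes in the 9 libraries, minus each gene's mean in CTL+siCTL, grouped by role (rows are genes, columns are libraries, blue is lower and red higher than the control mean, and colours end at -2 and 2). TLX+siCTL columns are mostly blue, with IFI27, BST2 and IFITM1 red, and TLX+siTLX columns hold both colours.

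**Figure D2:**
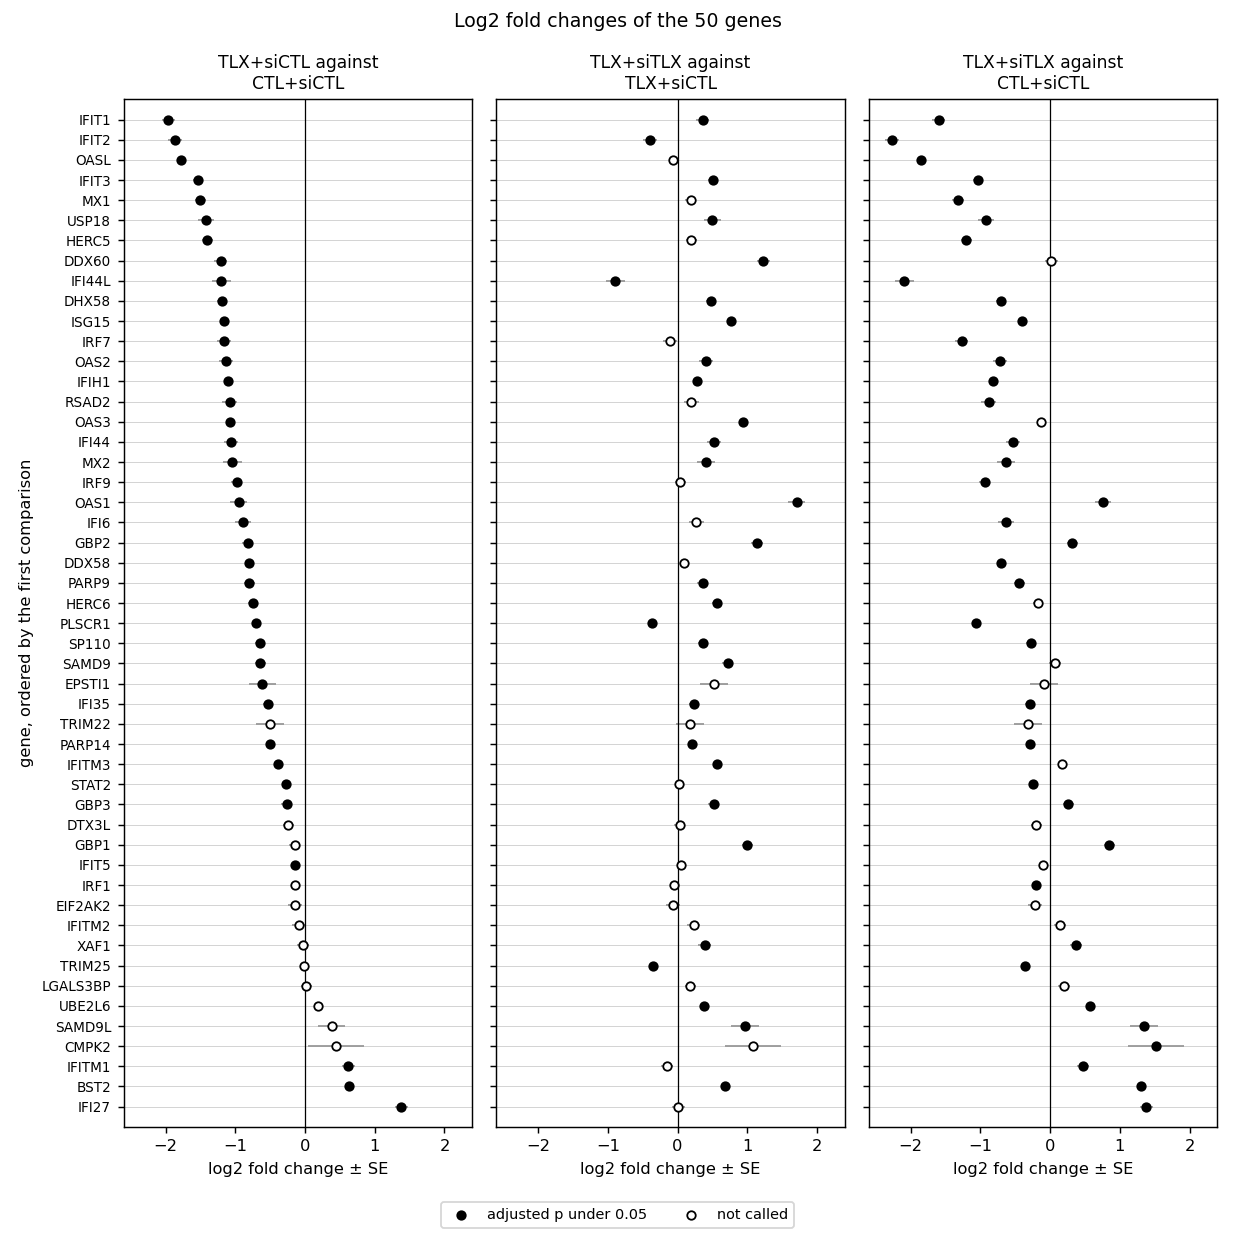
Log2 fold changes of the 50 genes with their standard errors in the 3 comparisons, genes ordered by TLX+siCTL against CTL+siCTL (filled points have an adjusted p under 0.05, open points do not). In that comparison 35 filled points lie below 0 and 3 above, against 4 below and 26 above in TLX+siTLX against TLX+siCTL.

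The promoters of the genes were searched for the 2 sites through which interferon acts. The 250 bases before each RefSeq start on GRCh38.p14 were taken, and 40 of the 50 genes had an entry, with 53 starts. No entry was matched for IRF7, DHX58, OAS2, OASL, IFIT2, USP18, MX2, GBP2, IFITM2 and TRIM22. The response element was written as GAAA, any 2 bases and GAAA again, which on the other strand reads TTTC, any 2 bases and TTTC. The gamma-activated site was written as TTCNNNGAA, where N is any base, which reads the same on both strands, and matches may overlap each other. The 5 genes with a response element match and the largest change in TLX+siCTL were chosen for display, and they are 4 genes that fell (IFIT1, IFIT3, MX1 and HERC5) and 1 that rose (IFI27). IFIT2, OASL and USP18, which fell more than HERC5, had no entry. Each stretch is on the plus strand, 5′ to 3′, with response element matches in capitals.
IFIT1, chr10:89392504-89392533: tagTTTCACTTTCcccTTTCGGTTTCccta
IFIT3, chr10:89332468-89332497: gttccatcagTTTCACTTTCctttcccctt
MX1, chr21:41431844-41431873: ggtcactctgTTTCTCTTTCcgtgaataaa
HERC5, chr4:88456974-88457073: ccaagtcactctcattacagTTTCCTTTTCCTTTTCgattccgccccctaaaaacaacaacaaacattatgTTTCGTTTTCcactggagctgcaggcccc
IFI27, chr14:94110625-94110654: cagTTTCGGTTTCctgGAAAATGAAAccta

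IFIT1 carried 2 matches side by side, starting at -116 and -103 relative to its start at 89392623. HERC5 carried 3, of which 2 overlap into a run of TTTC repeats. In IFI27, the gene that rose, a match on one strand faced a match on the other, and the pair lies before both of its annotated starts. The stretches of IFIT3 and MX1 lie before later starts of these genes, at 89332529 and 41432050. IFIT3 had response element matches before its start at 89327997 too, while the MX1 starts at 41420558 and 41426239 had no match. Both stretches overlap annotated exons on the same strand.

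At least 1 response element match was found for 24 of the 40 genes (60%), and in 28 of their 53 windows (52.8%). The share was 3.02% among the 35116 windows of all genes. A gamma-activated site match was found for 13 of the 40 genes (32.5%) and in 14 windows (26.4%), and in 6.57% of all windows. The genes were listed as interferon-stimulated, so high shares follow from the list and are not a result about the TLX groups. Of the 24 genes with a response element match, 19 fell and 3 rose in TLX+siCTL against CTL+siCTL, with a median log2 fold change of -0.84 and a range from -1.96 to 1.38. Of the 16 genes without one, 8 fell and 0 rose, with a median of -0.25 and a range from -0.98 to 0.44. These are descriptions of letters in a window, not evidence of binding, and the 2 sets were not tested against each other. Genes that rose (IFITM1, BST2 and IFI27) had response element matches as well.

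**Figure D3:**
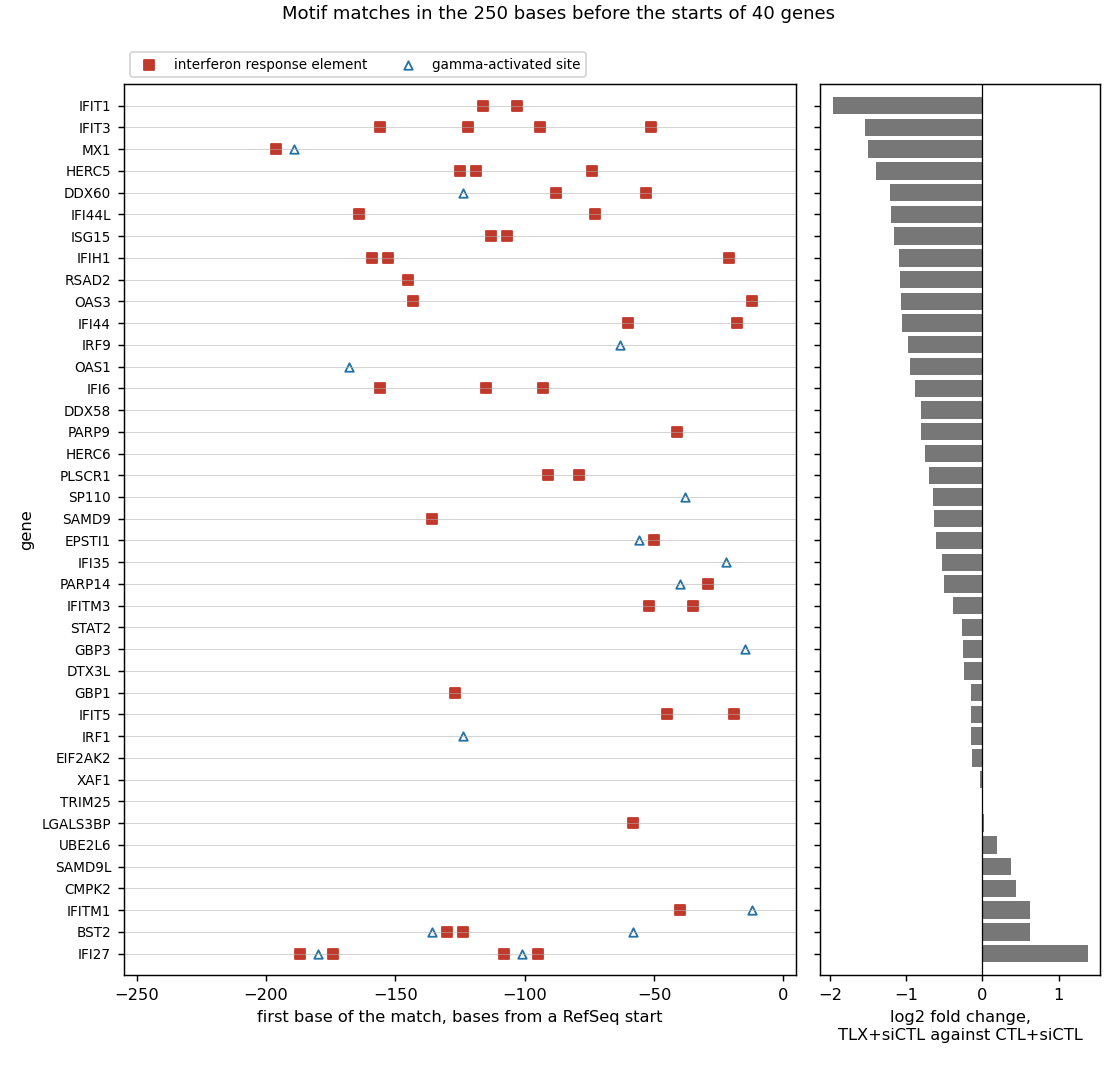
Matches to the interferon-stimulated response element (red squares) and the gamma-activated site (blue triangles) in the 250 bases before the RefSeq starts of 40 genes, drawn for every start, so that a match before 2 starts of a gene appears at 2 positions, beside the gene's log2 fold change in TLX+siCTL against CTL+siCTL (bars). Genes are ordered by that fold change, and matches occur near the top, among the strongest falls, and at the bottom, in IFITM1, BST2 and IFI27.

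Of 4 transcription factors of the response, 3 fell in TLX+siCTL, and none of the 4 passed the test with the siRNA. Counts by role, here and below, stand beside 27.4% falls and 29.3% rises among the expressed rows in TLX+siCTL. With the siRNA these shares were 22% and 23.8%. STAT2 and IRF9, parts of ISGF3, and IRF7, which drives interferon genes, fell in TLX+siCTL, and IRF1, a factor of interferon gamma responses, did not pass there. For IRF9 (chr14:24161053-24166565), log2 CPM was 4.28, 4.20 and 4.06 in S1 to S3, 3.23, 3.09 and 3.26 in S4 to S6 and 3.27, 3.12 and 3.32 in S7 to S9. The control libraries lay above all 6 TLX libraries, whose 2 groups overlapped. IRF9 had log2 fold changes of -0.98 ± 0.08 in TLX+siCTL (adjusted p = 2.77e-05), 0.04 ± 0.08 with the siRNA (adjusted p = 0.781) and -0.94 ± 0.08 against the controls (adjusted p = 2.46e-05). IRF9 stood on 2 rows with identical values, so its reads may have been split between them.

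For IRF7, log2 CPM was 5.14, 5.15 and 5.04 in S1 to S3, 4.03, 3.95 and 3.86 in S4 to S6 and 3.61, 3.83 and 4.07 in S7 to S9. Again the controls were apart from the rest, and S7 to S9 ranged around S4 to S6. IRF7 had log2 fold changes of -1.16 ± 0.10 (adjusted p = 4.68e-05), -0.11 ± 0.10 (adjusted p = 0.541) and -1.27 ± 0.10 (adjusted p = 1.89e-05), given in the order used for IRF9, which is kept below. The IRF7 row is outside the primary annotation. The primary row was much lower (mean log2 CPM -2.15), with a log2 fold change of -1.0 ± 0.34 in TLX+siCTL (adjusted p = 0.0565).

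For STAT2, log2 CPM was 6.81, 6.80 and 6.89 in S1 to S3, 6.61, 6.52 and 6.56 in S4 to S6 and 6.63, 6.57 and 6.55 in S7 to S9. The shift was small and the control libraries were nevertheless apart from the other 6. STAT2 had log2 fold changes of -0.27 ± 0.04 in TLX+siCTL (adjusted p = 0.000841), 0.02 ± 0.04 with the siRNA (adjusted p = 0.815) and -0.25 ± 0.04 against the controls (adjusted p = 0.00104). For IRF1, log2 CPM was 6.20, 6.26 and 6.16 in S1 to S3, 6.04, 6.07 and 6.04 in S4 to S6 and 5.92, 5.95 and 6.13 in S7 to S9. The controls were the highest libraries for IRF1 too, by a narrow margin. IRF1 had log2 fold changes of -0.15 ± 0.05 (adjusted p = 0.0688), -0.05 ± 0.05 (adjusted p = 0.602) and -0.20 ± 0.05 (adjusted p = 0.0188). The IRF1 call against the controls was lost without S1, S2, S7 or S8, left out 1 at a time (adjusted p from 0.058 to 0.0757), and without S9 the fall in TLX+siCTL passed (adjusted p = 0.00712).

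RNA sensors fell in all 4 cases in TLX+siCTL, and 3 of the 4 rose with the siRNA. DDX58 (RIG-I) and IFIH1 (MDA5) detect viral RNA in the cytosol, DHX58 (LGP2) tunes them, and DDX60 is a related helicase. For DDX60 (chr4:168216293-168318807), log2 CPM was 6.43, 6.50 and 6.60 in S1 to S3, 5.43, 5.14 and 5.34 in S4 to S6 and 6.62, 6.60 and 6.38 in S7 to S9. TLX+siCTL libraries were the lowest, and S7 to S9 overlapped the controls. DDX60 had log2 fold changes of -1.21 ± 0.09 in TLX+siCTL (adjusted p = 1.64e-05), 1.23 ± 0.09 with the siRNA (adjusted p = 3.26e-05) and 0.02 ± 0.09 against the controls (adjusted p = 0.918), a value with a standard error larger than itself.

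For DHX58, log2 CPM was 3.97, 3.77 and 3.87 in S1 to S3, 2.62, 2.75 and 2.68 in S4 to S6 and 3.20, 3.08 and 3.22 in S7 to S9. The 3 groups did not overlap, with TLX+siTLX in between. DHX58 had log2 fold changes of -1.19 ± 0.07 (adjusted p = 5.61e-06), 0.48 ± 0.07 (adjusted p = 0.00142) and -0.70 ± 0.07 (adjusted p = 7.26e-05). For IFIH1, log2 CPM was 6.62, 6.56 and 6.53 in S1 to S3, 5.50, 5.41 and 5.50 in S4 to S6 and 5.89, 5.73 and 5.62 in S7 to S9. The same order of groups was seen, with a smaller gap between the TLX groups. IFIH1 had log2 fold changes of -1.10 ± 0.06 (adjusted p = 4.77e-06), 0.28 ± 0.06 (adjusted p = 0.014) and -0.82 ± 0.06 (adjusted p = 1.39e-05). The rise of IFIH1 lost its call without S5 (adjusted p = 0.0669). DDX58 fell by 0.81 on the log2 scale in TLX+siCTL (adjusted p = 4.45e-06) and was at 0.09 ± 0.05 with the siRNA (adjusted p = 0.208), so it remained lower than in the controls, at -0.71 ± 0.05 (adjusted p = 4.95e-06).

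The oligoadenylate synthetases fell together in TLX+siCTL and took different levels after the siRNA. OAS1, OAS2 and OAS3 make oligoadenylates that activate the nuclease RNase L, OASL is a relative without that activity, and EIF2AK2 (PKR) is a kinase that stops translation on double-stranded RNA. OAS1 (chr12:112906777-112933222), OAS3 (chr12:112938352-112973249) and OAS2 (chr12:112978395-113011723) are neighbours on the plus strand of chromosome 12. For OAS1, log2 CPM was 3.87, 3.57 and 3.77 in S1 to S3, 3.08, 2.63 and 2.66 in S4 to S6 and 4.51, 4.52 and 4.47 in S7 to S9. TLX+siCTL was lowest and TLX+siTLX highest, above every control library. OAS1 had log2 fold changes of -0.95 ± 0.12 in TLX+siCTL (adjusted p = 0.000412), 1.71 ± 0.12 with the siRNA (adjusted p = 3.06e-05), the largest rise of the 50 genes in that comparison, and 0.76 ± 0.12 against the controls (adjusted p = 0.00117).

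For OAS3, log2 CPM was 5.45, 5.48 and 5.37 in S1 to S3, 4.45, 4.37 and 4.28 in S4 to S6 and 5.25, 5.31 and 5.35 in S7 to S9. The TLX+siTLX libraries were just below the controls and far above TLX+siCTL. OAS3 had log2 fold changes of -1.07 ± 0.05 (adjusted p = 2.44e-06), 0.94 ± 0.05 (adjusted p = 1.06e-05) and -0.13 ± 0.05 (adjusted p = 0.103). For OAS2, log2 CPM was 5.87, 5.78 and 5.73 in S1 to S3, 4.82, 4.53 and 4.66 in S4 to S6 and 5.22, 5.13 and 4.89 in S7 to S9. Its TLX+siTLX libraries stayed between both other groups. OAS2 had log2 fold changes of -1.13 ± 0.10 (adjusted p = 3.88e-05), 0.41 ± 0.10 (adjusted p = 0.0157) and -0.72 ± 0.10 (adjusted p = 0.000432). The OAS2 rise was not called without S5, S6, S7 or S8, left out 1 at a time (adjusted p from 0.0653 to 0.0751). Relative to control cells, these 3 neighbouring genes thus ended above, near and below after the siRNA.

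OASL (chr12:121019111-121039242), elsewhere on the chromosome, had log2 CPM of 7.36, 7.40 and 7.35 in S1 to S3, 5.58, 5.70 and 5.50 in S4 to S6 and 5.58, 5.53 and 5.46 in S7 to S9. All 6 TLX libraries were far below the controls, and the 2 TLX groups overlapped. OASL had log2 fold changes of -1.78 ± 0.05 (adjusted p = 3.22e-07), -0.07 ± 0.05 (adjusted p = 0.456) and -1.85 ± 0.05 (adjusted p = 9.98e-08). The fall is a 3.43-fold lower level in TLX+siCTL. EIF2AK2 passed no test, with log2 fold changes of -0.14 ± 0.10, -0.07 ± 0.10 and -0.21 ± 0.10.

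The IFIT genes held the 2 steepest falls in TLX+siCTL, those of IFIT1 and IFIT2. IFIT1, IFIT2, IFIT3 and IFIT5 encode proteins that bind viral RNA and block its translation, and they lie in a row on the plus strand of chromosome 10, from IFIT2 at chr10:89283694-89309276 through IFIT3 (chr10:89327894-89340971) and IFIT1 (chr10:89392546-89406486) to IFIT5 (chr10:89414586-89421001). All 4 fell in TLX+siCTL. For IFIT1, log2 CPM was 8.17, 8.08 and 8.03 in S1 to S3, 6.13, 6.21 and 6.07 in S4 to S6 and 6.68, 6.50 and 6.30 in S7 to S9. TLX+siCTL was the lowest group, and S7 to S9 were only slightly higher. IFIT1 had log2 fold changes of -1.96 ± 0.09 in TLX+siCTL (adjusted p = 1.60e-06), a 3.88-fold lower level, 0.36 ± 0.09 with the siRNA (adjusted p = 0.019) and -1.60 ± 0.09 against the controls (adjusted p = 2.09e-06). The rise with the siRNA lost its call without S4, S6, S7 or S8, left out 1 at a time (adjusted p from 0.0503 to 0.09).

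For IFIT2, log2 CPM was 9.34, 9.26 and 9.15 in S1 to S3, 7.37, 7.49 and 7.28 in S4 to S6 and 7.13, 7.04 and 6.76 in S7 to S9. The groups stepped down, with TLX+siTLX lowest. IFIT2 had log2 fold changes of -1.87 ± 0.10 (adjusted p = 2.80e-06), -0.40 ± 0.10 (adjusted p = 0.0163) and -2.27 ± 0.10 (adjusted p = 5.21e-07), the last a 4.83-fold lower level and the largest fall of the 50 genes. The further fall with the siRNA was not called without S4 or S5, left out 1 at a time (adjusted p from 0.0665 to 0.0836). For IFIT3, log2 CPM was 8.94, 8.89 and 8.79 in S1 to S3, 7.34, 7.36 and 7.31 in S4 to S6 and 7.97, 7.87 and 7.71 in S7 to S9. Its TLX+siTLX libraries took an intermediate level, apart from both other groups. IFIT3 had log2 fold changes of -1.54 ± 0.07 (adjusted p = 1.12e-06), 0.51 ± 0.07 (adjusted p = 0.0006) and -1.03 ± 0.07 (adjusted p = 4.17e-06). IFIT5 moved far less, at -0.15 ± 0.04 in TLX+siCTL (adjusted p = 0.0157), 0.05 ± 0.04 with the siRNA and -0.10 ± 0.04 against the controls, neither of which passed (adjusted p = 0.473 and 0.0687). With each library's median over all rows set equal, its fall was -0.03 and not called (adjusted p = 0.692). Against the controls its fall passed without S3 (adjusted p = 0.0274) and without S7 (adjusted p = 0.0466).

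**Figure D4:**
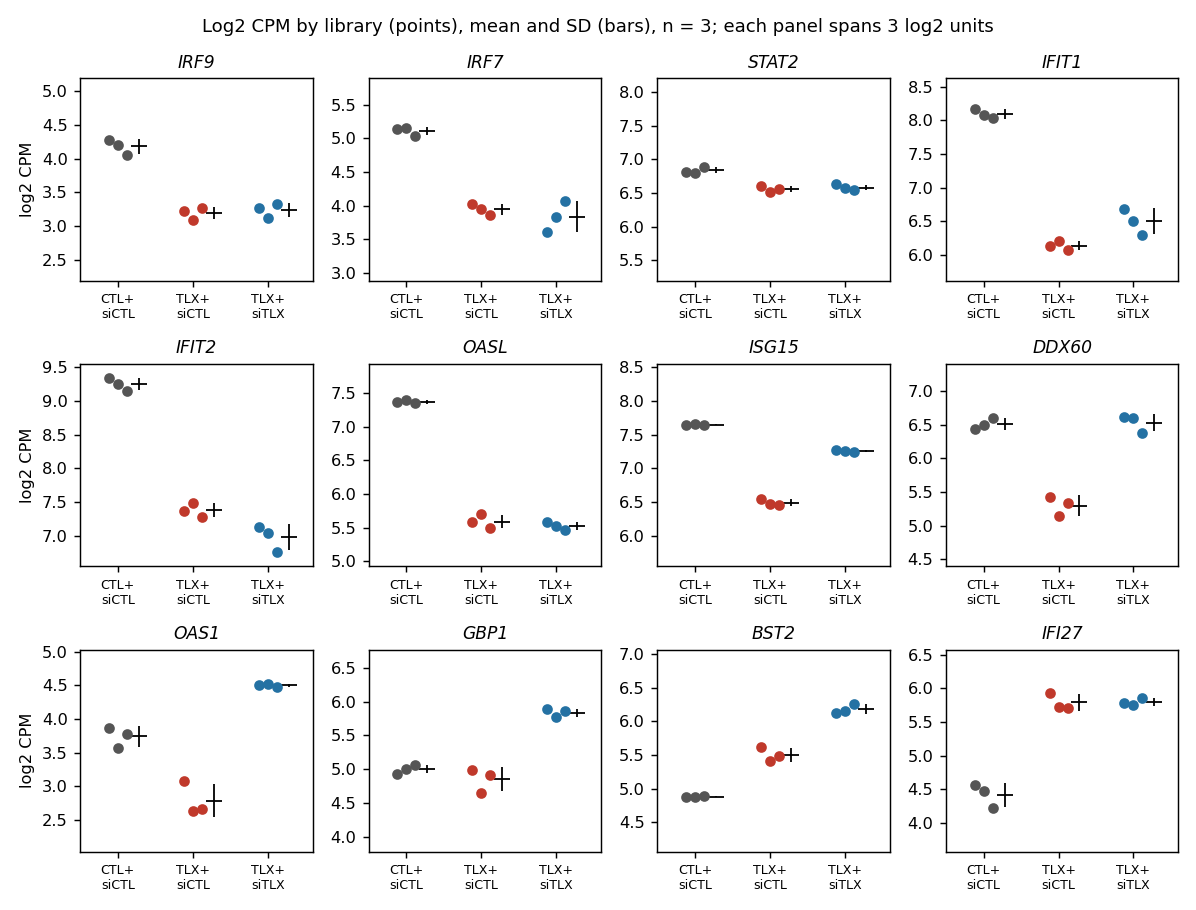
Log2 CPM of 12 of the genes in each library (points, 3 per group), with the group mean and SD (bars), in panels that all span 3 log2 units. IRF9, IRF7, STAT2, IFIT2 and OASL are low in both TLX groups, ISG15, DDX60, OAS1 and IFIT1 are lowest in TLX+siCTL, GBP1 is high in TLX+siTLX, and BST2 and IFI27 are above the control libraries in both TLX groups.

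Of ISG15 and 5 genes of its attachment and removal, ISG15, HERC6 and USP18 fell in TLX+siCTL and rose with the siRNA. HERC5 fell and was not called with the siRNA, while UBE2L6 rose and TRIM25 fell with the siRNA without a call in TLX+siCTL. ISG15 is a ubiquitin-like protein, UBE2L6 its conjugating enzyme, HERC5 its ligase and HERC6 a relative of that ligase. USP18 removes ISG15 and also damps the type I interferon receptor, and TRIM25 is a ubiquitin ligase that acts on RIG-I. For ISG15 (chr1:1001138-1014540), log2 CPM was 7.65, 7.66 and 7.65 in S1 to S3, 6.55, 6.47 and 6.46 in S4 to S6 and 7.27, 7.26 and 7.24 in S7 to S9. The libraries of each group agreed closely and no groups overlapped. ISG15 had log2 fold changes of -1.16 ± 0.03 in TLX+siCTL (adjusted p = 2.78e-07), 0.77 ± 0.03 with the siRNA (adjusted p = 3.34e-06) and -0.40 ± 0.03 against the controls (adjusted p = 1.80e-05).

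For HERC5, log2 CPM was 7.69, 7.67 and 7.70 in S1 to S3, 6.34, 6.26 and 6.26 in S4 to S6 and 6.69, 6.45 and 6.31 in S7 to S9. S9 was as low as the TLX+siCTL libraries, while S7 and S8 were above them. HERC5 had log2 fold changes of -1.40 ± 0.08 (adjusted p = 5.14e-06), 0.20 ± 0.08 (adjusted p = 0.14) and -1.20 ± 0.08 (adjusted p = 7.04e-06). Without S9 the change with the siRNA was 0.29 and passed (adjusted p = 0.0267). For USP18, log2 CPM was 2.30, 2.27 and 2.27 in S1 to S3, 0.73, 1.06 and 0.79 in S4 to S6 and 1.22, 1.43 and 1.43 in S7 to S9. The intermediate place of TLX+siTLX was seen here too. USP18 had log2 fold changes of -1.42 ± 0.12 (adjusted p = 3.04e-05), 0.50 ± 0.12 (adjusted p = 0.0148) and -0.92 ± 0.12 (adjusted p = 0.0003). The USP18 rise was not called with library medians set equal (0.36, adjusted p = 0.0567), with quantile normalization (0.36, adjusted p = 0.0655) or with only 2 groups fitted (adjusted p = 0.0531). HERC6 fell by 0.75 in TLX+siCTL (adjusted p = 6.86e-05), rose by 0.57 with the siRNA (adjusted p = 0.000572) and was at -0.17 ± 0.07 against the controls (adjusted p = 0.102), a fall that passed without S5 (adjusted p = 0.027).

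TRIM25 and UBE2L6 took other courses. For TRIM25, log2 CPM was 8.49, 8.45 and 8.44 in S1 to S3, 8.46, 8.36 and 8.53 in S4 to S6 and 8.17, 8.13 and 7.99 in S7 to S9. CTL+siCTL and TLX+siCTL overlapped, and TLX+siTLX lay below both. TRIM25 had log2 fold changes of -0.01 ± 0.06 (adjusted p = 0.995), -0.35 ± 0.06 (adjusted p = 0.0022) and -0.36 ± 0.06 (adjusted p = 0.00105). For UBE2L6, log2 CPM was 4.96, 5.08 and 5.03 in S1 to S3, 5.28, 5.21 and 5.14 in S4 to S6 and 5.47, 5.65 and 5.67 in S7 to S9. The groups stepped up without overlap. UBE2L6 had log2 fold changes of 0.19 ± 0.06 (adjusted p = 0.0554), 0.38 ± 0.06 (adjusted p = 0.00256) and 0.57 ± 0.06 (adjusted p = 0.000121). Without S7 the rise in TLX+siCTL passed (adjusted p = 0.0221).

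Antiviral GTPases fell in 4 of 5 cases in TLX+siCTL and rose in 4 of 5 with the siRNA. MX1 and MX2 are dynamin-like proteins that restrict viruses. The guanylate-binding proteins GBP1, GBP2 and GBP3 respond above all to interferon gamma and attack intracellular pathogens. For MX1 (chr21:41420304-41459214), log2 CPM was 5.81, 5.57 and 5.49 in S1 to S3, 4.20, 4.13 and 4.02 in S4 to S6 and 4.36, 4.29 and 4.26 in S7 to S9. Both TLX groups were low and close to each other without overlapping. MX1 had log2 fold changes of -1.50 ± 0.08 (adjusted p = 3.75e-06), 0.19 ± 0.08 (adjusted p = 0.167) and -1.32 ± 0.08 (adjusted p = 4.14e-06). For MX2, log2 CPM was 2.67, 2.64 and 2.76 in S1 to S3, 1.34, 1.84 and 1.76 in S4 to S6 and 2.13, 2.02 and 2.03 in S7 to S9. S4 was the lowest library and S7 to S9 were intermediate. MX2 had log2 fold changes of -1.04 ± 0.13 (adjusted p = 0.000285), 0.41 ± 0.13 (adjusted p = 0.049) and -0.63 ± 0.13 (adjusted p = 0.00431), and the rise was not called without S1, S2, S3, S6, S7, S8 or S9, left out 1 at a time (adjusted p from 0.0698 to 0.132).

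The guanylate-binding proteins were higher in TLX+siTLX than in either other group. For GBP1 (chr1:89052319-89065360), log2 CPM was 4.93, 5.0 and 5.06 in S1 to S3, 4.99, 4.65 and 4.91 in S4 to S6 and 5.89, 5.78 and 5.87 in S7 to S9. Only the siRNA group stood apart. GBP1 had log2 fold changes of -0.15 ± 0.08 (adjusted p = 0.252), 1.00 ± 0.08 (adjusted p = 6.60e-05) and 0.85 ± 0.08 (adjusted p = 5.55e-05). For GBP2, log2 CPM was 5.69, 5.66 and 5.85 in S1 to S3, 5.04, 4.75 and 4.96 in S4 to S6 and 6.08, 6.00 and 6.07 in S7 to S9. Here TLX+siCTL was also apart, below the controls. GBP2 had log2 fold changes of -0.82 ± 0.08 (adjusted p = 6.53e-05), 1.14 ± 0.08 (adjusted p = 2.46e-05) and 0.32 ± 0.08 (adjusted p = 0.0115), the last not called without S1 or S2, left out 1 at a time (adjusted p from 0.0583 to 0.0586).

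For GBP3 (chr1:89006666-89022894), log2 CPM was 6.49, 6.47 and 6.45 in S1 to S3, 6.12, 6.23 and 6.29 in S4 to S6 and 6.86, 6.79 and 6.54 in S7 to S9. The order of groups was that of GBP2, with S9 close to the controls. GBP3 had log2 fold changes of -0.26 ± 0.08 (adjusted p = 0.0388), 0.52 ± 0.08 (adjusted p = 0.00166) and 0.26 ± 0.08 (adjusted p = 0.0318). The fall of GBP3 in TLX+siCTL was not called without S1, S2, S3, S4, S5, S6 or S8, left out 1 at a time (adjusted p from 0.0641 to 0.155), nor was its rise against the controls without S1, S2, S3, S5, S6, S7 or S8, left out 1 at a time (adjusted p from 0.0532 to 0.122). GBP1 and GBP3 are close paralogs and neighbours on chromosome 1, and reads may have been shared between them.

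Proteins at membranes and in nucleotide metabolism moved in both directions. In TLX+siCTL, 2 of 7 rose (IFITM1 and BST2) and 3 fell (IFITM3, RSAD2 and PLSCR1). The share that rose (28.6%) was near the 29.3% of the expressed rows, so it is not a result about these genes. The share that fell was 42.9%, beside 27.4%. BST2, or tetherin, holds budding virus at the cell surface. For BST2 (chr19:17402939-17405648), log2 CPM was 4.87, 4.87 and 4.89 in S1 to S3, 5.62, 5.41 and 5.49 in S4 to S6 and 6.13, 6.16 and 6.26 in S7 to S9. The groups stepped up and did not overlap. BST2 had log2 fold changes of 0.63 ± 0.06 (adjusted p = 4.92e-05), 0.68 ± 0.06 (adjusted p = 6.82e-05) and 1.31 ± 0.06 (adjusted p = 5.74e-07), and it was called as a rise in all 3 comparisons.

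The IFITM proteins block fusion of viruses with cell membranes. For IFITM1 (chr11:313506-315272), log2 CPM was 4.19, 4.13 and 3.99 in S1 to S3, 4.80, 4.70 and 4.68 in S4 to S6 and 4.42, 4.55 and 4.74 in S7 to S9. Both TLX groups were above the controls and overlapped each other. IFITM1 had log2 fold changes of 0.62 ± 0.09 (adjusted p = 0.000529), -0.15 ± 0.09 (adjusted p = 0.269) and 0.47 ± 0.09 (adjusted p = 0.00221). IFITM3 (chr11:319669-327537) fell by 0.39 in TLX+siCTL (adjusted p = 0.00102), rose by 0.57 with the siRNA (adjusted p = 0.00022) and was at 0.17 ± 0.06 against the controls (adjusted p = 0.0536). IFITM2 (chr11:307631-315272) passed no test, at -0.09 ± 0.09, 0.23 ± 0.09 and 0.14 ± 0.09. Without S7, IFITM2 rose with the siRNA (0.34, adjusted p = 0.00925) and both IFITM2 and IFITM3 rose against the controls (adjusted p = 0.02 and 0.00269). The 3 genes are close paralogs and the annotated IFITM2 model spans IFITM1, so the split of reads between them is uncertain.

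PLSCR1, a phospholipid scramblase with antiviral activity, fell in both steps. For PLSCR1 (chr3:146515180-146544864), log2 CPM was 5.42, 5.38 and 5.22 in S1 to S3, 4.66, 4.67 and 4.59 in S4 to S6 and 4.21, 4.25 and 4.36 in S7 to S9. The groups stepped down without overlap. PLSCR1 had log2 fold changes of -0.70 ± 0.06 (adjusted p = 4.61e-05), -0.36 ± 0.06 (adjusted p = 0.00304) and -1.06 ± 0.06 (adjusted p = 2.74e-06). RSAD2 (viperin) makes a nucleotide that ends viral RNA chains, and CMPK2 is a mitochondrial nucleotide kinase. For RSAD2 (chr2:6865806-6898239), log2 CPM was 3.88, 3.99 and 3.58 in S1 to S3, 2.66, 2.64 and 2.91 in S4 to S6 and 2.88, 3.00 and 2.93 in S7 to S9. Both TLX groups lay below the controls and overlapped. RSAD2 had log2 fold changes of -1.08 ± 0.11 (adjusted p = 0.000117), 0.20 ± 0.11 (adjusted p = 0.28) and -0.88 ± 0.11 (adjusted p = 0.000302).

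CMPK2 (chr2:6840570-6866635) had few reads, with log2 CPM of -3.17, -1.81 and -2.72 in S1 to S3, -1.83, -2.09 and -2.46 in S4 to S6 and -0.94, -0.72 and -1.47 in S7 to S9. Control libraries scattered widely, and S7 to S9 were the highest. CMPK2 had log2 fold changes of 0.44 ± 0.40 (adjusted p = 0.479), 1.08 ± 0.40 (adjusted p = 0.0913) and 1.52 ± 0.40 (adjusted p = 0.0166), and the rise against the controls was not called without S1, S3, S7 or S8, left out 1 at a time (adjusted p from 0.0545 to 0.0637). Without S2, CMPK2 rose with the siRNA (adjusted p = 0.0472). CMPK2 and RSAD2 overlap on opposite strands of chromosome 2, and although the libraries were stranded, no source used here states whether the counting used strand.

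PARP9 and PARP14 fell in TLX+siCTL and rose with the siRNA. PARP9 pairs with the ubiquitin ligase DTX3L, and PARP14 is a related ADP-ribosyltransferase. For PARP9 (chr3:122527924-122564577), log2 CPM was 4.02, 3.86 and 4.00 in S1 to S3, 3.33, 3.16 and 3.01 in S4 to S6 and 3.58, 3.52 and 3.48 in S7 to S9. The groups were apart, with TLX+siTLX in between. PARP9 had log2 fold changes of -0.80 ± 0.08 (adjusted p = 0.00012), 0.36 ± 0.08 (adjusted p = 0.0148) and -0.44 ± 0.08 (adjusted p = 0.00322). For PARP14, log2 CPM was 6.82, 6.66 and 6.86 in S1 to S3, 6.25, 6.26 and 6.34 in S4 to S6 and 6.56, 6.49 and 6.44 in S7 to S9. The order was that of PARP9, over a smaller span. PARP14 had log2 fold changes of -0.50 ± 0.06 (adjusted p = 0.000217), 0.21 ± 0.06 (adjusted p = 0.031) and -0.29 ± 0.06 (adjusted p = 0.00424). With the siRNA, the PARP9 rise was not called without S5, S7 or S8, left out 1 at a time (adjusted p from 0.0508 to 0.0553), and the PARP14 rise was not called without S1, S4, S5, S7 or S8, left out 1 at a time (adjusted p from 0.0584 to 0.113).

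DTX3L (chr3:122564238-122575203) overlaps the start of PARP9 on the opposite strand. For DTX3L, log2 CPM was 6.07, 6.02 and 6.10 in S1 to S3, 5.83, 5.70 and 5.96 in S4 to S6 and 5.89, 6.00 and 5.70 in S7 to S9. The controls were above TLX+siCTL by a small margin and the TLX groups overlapped. DTX3L had log2 fold changes of -0.24 ± 0.08 (adjusted p = 0.0643), 0.03 ± 0.08 (adjusted p = 0.856) and -0.20 ± 0.08 (adjusted p = 0.0977). Its fall in TLX+siCTL passed without S6 (adjusted p = 0.0489) and without S9 (adjusted p = 0.0377).

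Of the 5 genes named IFI for their induction by interferon, 4 fell in TLX+siCTL and IFI27 rose. IFI27 encodes a small mitochondrial protein, IFI6 a relative of it, IFI44 and IFI44L are paralogs, and IFI35 is a leucine zipper protein. For IFI27 (chr14:94104836-94116698), log2 CPM was 4.56, 4.47 and 4.22 in S1 to S3, 5.93, 5.73 and 5.71 in S4 to S6 and 5.78, 5.75 and 5.86 in S7 to S9. All 6 TLX libraries were above the controls, and the 2 TLX groups overlapped. IFI27 had log2 fold changes of 1.38 ± 0.09 (adjusted p = 9.31e-06), 0.01 ± 0.09 (adjusted p = 1) and 1.38 ± 0.09 (adjusted p = 5.66e-06). This was the largest rise of the 50 genes in TLX+siCTL, and the gene's other row, outside the primary annotation, rose by 1.30 ± 0.07.

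For IFI44L, log2 CPM was 2.80, 2.61 and 2.70 in S1 to S3, 1.67, 1.27 and 1.55 in S4 to S6 and 0.82, 0.51 and 0.51 in S7 to S9. The groups stepped down without overlap. IFI44L had log2 fold changes of -1.20 ± 0.14 (adjusted p = 0.00021), -0.89 ± 0.14 (adjusted p = 0.00201) and -2.09 ± 0.14 (adjusted p = 5.69e-06), the last a 4.26-fold lower level. Its neighbour IFI44 (chr1:78649796-78664078, beside IFI44L at chr1:78619922-78646145) went the other way with the siRNA. For IFI44, log2 CPM was 5.92, 5.94 and 5.90 in S1 to S3, 4.92, 4.75 and 4.92 in S4 to S6 and 5.62, 5.36 and 5.17 in S7 to S9. TLX+siTLX libraries were intermediate and spread out. IFI44 had log2 fold changes of -1.06 ± 0.10 (adjusted p = 6.59e-05), 0.52 ± 0.10 (adjusted p = 0.0056) and -0.53 ± 0.10 (adjusted p = 0.00293).

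IFI6 fell by 0.89 in TLX+siCTL (adjusted p = 0.000287), was at 0.27 ± 0.11 with the siRNA (adjusted p = 0.13) and was at -0.63 ± 0.11 against the controls (adjusted p = 0.00188). Without S4 the IFI6 change with the siRNA passed (0.37, adjusted p = 0.0388). IFI35 fell by 0.53 in TLX+siCTL (adjusted p = 0.000467), rose by 0.24 with the siRNA (adjusted p = 0.0408) and was at -0.29 ± 0.07 against the controls (adjusted p = 0.011). The IFI35 rise was not called without S1, S2, S3, S4, S5, S6, S7 or S9, left out 1 at a time (adjusted p from 0.0607 to 0.12).

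Among the remaining 7 genes, 3 fell in TLX+siCTL (42.9%, beside 27.4% of the expressed rows) and 4 rose with the siRNA (57.1%, beside 23.8%). SAMD9 and SAMD9L are paralogs that restrict translation and lie side by side on the minus strand of chromosome 7. For SAMD9 (chr7:93099513-93118023), log2 CPM was 6.28, 6.19 and 6.28 in S1 to S3, 5.59, 5.56 and 5.67 in S4 to S6 and 6.51, 6.34 and 6.13 in S7 to S9. Only TLX+siCTL was apart, below the others. SAMD9 had log2 fold changes of -0.64 ± 0.08 (adjusted p = 0.000421), 0.72 ± 0.08 (adjusted p = 0.0004) and 0.07 ± 0.08 (adjusted p = 0.578). For SAMD9L (chr7:93130055-93148369), log2 CPM was 3.77, 3.62 and 3.52 in S1 to S3, 4.08, 3.89 and 4.07 in S4 to S6 and 5.41, 5.05 and 4.48 in S7 to S9. The groups stepped up, and S7 to S9 were widely spread. SAMD9L had log2 fold changes of 0.38 ± 0.20 (adjusted p = 0.214), 0.97 ± 0.20 (adjusted p = 0.00763) and 1.35 ± 0.20 (adjusted p = 0.00068). Without S9 the rise of SAMD9L in TLX+siCTL passed (adjusted p = 0.0458).

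SP110 is a nuclear body protein, and XAF1 promotes apoptosis by binding XIAP. For SP110 (chr2:230167293-230225729), log2 CPM was 4.50, 4.62 and 4.46 in S1 to S3, 3.87, 3.94 and 3.82 in S4 to S6 and 4.35, 4.23 and 4.15 in S7 to S9. The groups did not overlap, and TLX+siTLX was intermediate. SP110 had log2 fold changes of -0.65 ± 0.07 (adjusted p = 8.75e-05), 0.37 ± 0.07 (adjusted p = 0.00349) and -0.28 ± 0.07 (adjusted p = 0.00898). For XAF1, log2 CPM was 4.02, 3.68 and 3.89 in S1 to S3, 3.90, 3.85 and 3.76 in S4 to S6 and 4.23, 4.17 and 4.30 in S7 to S9. TLX+siTLX was above the rest. XAF1 had log2 fold changes of -0.03 ± 0.09 (adjusted p = 0.896), 0.39 ± 0.09 (adjusted p = 0.0104) and 0.37 ± 0.09 (adjusted p = 0.00929), and its rise with the siRNA was not called without S6 (adjusted p = 0.0514).

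For EPSTI1, a gene of epithelial-stromal interaction in breast cancer, log2 CPM was 2.05, 2.10 and 2.03 in S1 to S3, 1.79, 1.26 and 1.28 in S4 to S6 and 2.38, 1.80 and 1.72 in S7 to S9. Libraries within the TLX groups scattered widely. EPSTI1 had log2 fold changes of -0.61 ± 0.20 (adjusted p = 0.0467), 0.52 ± 0.20 (adjusted p = 0.102) and -0.09 ± 0.20 (adjusted p = 0.781), and its fall was not called without S1, S2, S3, S5, S6, S8 or S9, left out 1 at a time (adjusted p from 0.0579 to 0.166). TRIM22, an antiviral ubiquitin ligase, passed no test, at -0.50 ± 0.20, 0.18 ± 0.20 and -0.32 ± 0.20. LGALS3BP, a secreted galectin-binding protein, passed none either, at 0.02 ± 0.08, 0.18 ± 0.08 and 0.20 ± 0.08. Without S7, LGALS3BP rose with the siRNA (adjusted p = 0.0224) and against the controls (adjusted p = 0.0114).

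The rest of the pathway was read from a list of ligands, receptors, kinases, feedback genes, induction genes and other induced genes, of which 62 in the table were used. In TLX+siCTL against CTL+siCTL 22 fell (35.5%) and 14 rose (22.6%), where 27.4% of the expressed rows fell and 29.3% rose, and the median was -0.08. With the siRNA 21 rose (33.9%) and 9 fell (14.5%), beside 23.8% and 22% of the expressed rows, with a median of 0.12. Against the controls 22 rose (35.5%) and 17 fell (27.4%), beside 32.4% and 31.2%, with a median of 0.03. The last shares were near those of the expressed rows and are not a result about the list. IFNB1, IFNA1, IFNA2, IFNE, IFNG and IRF8 were listed too, but no row of the table used carried these symbols.

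RNA of the 4 ligands found in the table (IFNK, IFNL1, IFNL2 and IFNL3) was scarce. IFNL1, a type III interferon, had log2 CPM of -0.94, -1.30 and -2.13 in S1 to S3, -2.90, -2.30 and -4.00 in S4 to S6 and -3.53, -3.11 and -2.34 in S7 to S9, and fell by 1.61 ± 0.53 in TLX+siCTL with an adjusted p just under the threshold (0.0499). The call was lost without S1, S2, S4, S6, S7, S8 or S9, left out 1 at a time (adjusted p from 0.0586 to 0.174), and with library medians set equal, quantile normalization, no intensity trend or only 2 groups fitted (adjusted p from 0.0538 to 0.1). Its TLX libraries lay below every control library. IFNK, IFNL2 and IFNL3 were at or near the lowest value of the table, -5.33, in all libraries and were not called.

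Receptor subunits differed. For IFNLR1, the specific subunit of the type III interferon receptor, log2 CPM was 4.09, 3.95 and 4.18 in S1 to S3, 2.69, 2.53 and 2.70 in S4 to S6 and 2.74, 2.65 and 2.11 in S7 to S9. The controls were apart from all 6 TLX libraries. IFNLR1 had log2 fold changes of -1.43 ± 0.15 in TLX+siCTL (adjusted p = 0.000129) and -0.14 ± 0.15 with the siRNA (adjusted p = 0.603). IL10RB, the shared subunit, fell by 0.16 (adjusted p = 0.0309), a call lost without S1, S2, S5 or S6, left out 1 at a time (adjusted p from 0.0579 to 0.0929) and with library medians set equal (-0.04, adjusted p = 0.605). IFNAR1 of the type I receptor rose by 0.27 in TLX+siCTL (adjusted p = 0.00105) and fell by 0.15 with the siRNA (adjusted p = 0.0317). The IFNAR1 fall was not called without S1, S4, S5, S6, S8 or S9, left out 1 at a time (adjusted p from 0.052 to 0.0995), nor with no intensity trend or only 2 groups fitted (adjusted p = 0.115 and 0.0848). IFNAR2 (0.03 ± 0.09), IFNGR1 (0.02 ± 0.05) and IFNGR2 (-0.04 ± 0.04) were not called in TLX+siCTL, and IFNGR2 fell by 0.26 with the siRNA (adjusted p = 0.0028).

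Of 4 kinases and STATs, 3 fell in TLX+siCTL (75%, beside 27.4% of the expressed rows). JAK2, which serves the interferon gamma receptor, changed by -1.28 ± 0.19 (adjusted p = 0.000914) and was at -0.16 ± 0.19 with the siRNA (adjusted p = 0.636), a change that was -0.41 and passed without S7 (adjusted p = 0.0273). JAK1 fell in both steps, by 0.29 (adjusted p = 0.000668) and 0.21 (adjusted p = 0.00582). TYK2 fell by 0.27 (adjusted p = 0.0217) and rose by 0.38 with the siRNA (adjusted p = 0.00543). The TYK2 fall was not called without S1, S2, S4 or S5, left out 1 at a time (adjusted p from 0.0501 to 0.0993), nor with library medians set equal (-0.15, adjusted p = 0.189). STAT3 was not called (0.04 ± 0.04 and -0.03 ± 0.04), except as a fall with the siRNA when library medians were set equal (-0.17, adjusted p = 0.0423).

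Among feedback and induction genes, SOCS1, which inhibits JAK kinases, was at -0.23 ± 0.17 in TLX+siCTL (adjusted p = 0.404) and rose by 1.38 with the siRNA (adjusted p = 0.000504). PTPN6, a phosphatase, rose by 1.54 in TLX+siCTL (adjusted p = 0.000326) and was at 0.08 ± 0.19 with the siRNA (adjusted p = 0.836). IRF5, a factor that induces interferon and cytokine genes, fell by 1.29 (adjusted p = 0.000267) and again by 0.62 with the siRNA (adjusted p = 0.0206). The further fall of IRF5 was not called without S5, S7 or S9, left out 1 at a time (adjusted p from 0.0591 to 0.081).

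Other induced genes with at least 2-fold changes included ISG20, an exonuclease, at -1.65 ± 0.05 in TLX+siCTL (adjusted p = 3.22e-07) and 0.51 ± 0.05 with the siRNA (adjusted p = 0.000152). CXCL10, a chemokine for T cells, was at -1.26 ± 0.21 (adjusted p = 0.00148) and 1.21 ± 0.21 (adjusted p = 0.00279). TNFSF10, the death ligand TRAIL, was at 0.09 ± 0.11 (adjusted p = 0.626) and 2.01 ± 0.11 (adjusted p = 8.66e-06). ISG20 and CXCL10 were thus called in both comparisons and TNFSF10 in the latter. CXCL11, a relative of CXCL10, was at -0.37 ± 0.23 (adjusted p = 0.299) and 1.23 ± 0.23 (adjusted p = 0.00471). CCL5, another chemokine, was at -1.09 ± 0.36 (adjusted p = 0.051) and 2.09 ± 0.36 (adjusted p = 0.00309), and without S5 its fall passed (adjusted p = 0.0105). CCL5 stood on 2 rows, and with these summed its fall was -0.67 and passed (adjusted p = 0.0409). The CCL5 rise with the siRNA ranged from 0.82 to 2.47 over the alternatives. APOBEC3B, a cytidine deaminase, rose in both steps, by 1.12 (adjusted p = 0.000653) and 1.78 (adjusted p = 9.00e-05).

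**Figure D5:**
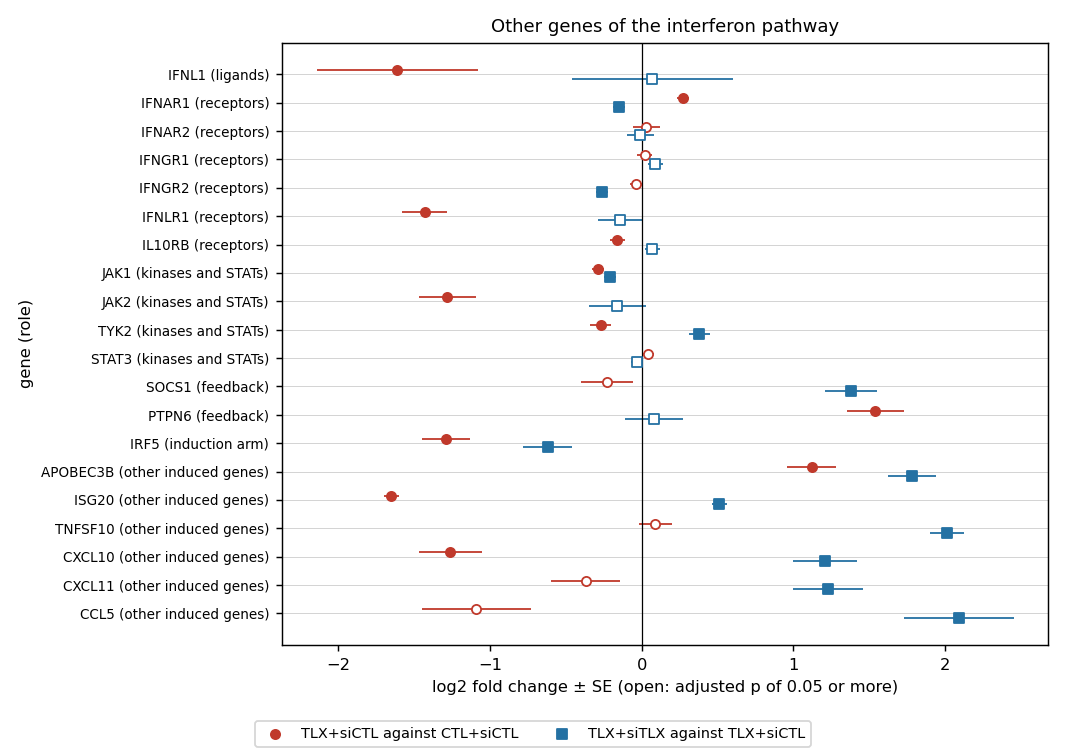
Log2 fold changes with standard errors of 20 further genes of the interferon pathway, labelled by role, in TLX+siCTL against CTL+siCTL (red circles) and TLX+siTLX against TLX+siCTL (blue squares), filled where the adjusted p is under 0.05. IFNLR1, JAK2 and IRF5 lie below 0 in the red series, while SOCS1, TNFSF10, CXCL10, CXCL11 and CCL5 lie above 0 in the blue series.

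Markers of other cells were read in the same libraries. Of 11 immune cell markers 9 were in the table, and their summed CPM was 75.6 to 77.9 in CTL+siCTL, 46.4 to 47.6 in TLX+siCTL and 79.5 to 89.4 in TLX+siTLX. Nearly all of this was CD68, a lysosomal protein that is not restricted to immune cells. Without CD68 the sums were 2.24 to 2.93, 1.76 to 2.44 and 1.52 to 2.49, and CD3E was at 0 in every TLX+siCTL and TLX+siTLX library. CD68 fell in TLX+siCTL (-0.71 ± 0.05, adjusted p = 6.93e-06) and rose with the siRNA (0.86 ± 0.05, adjusted p = 7.27e-06). ITGAM, a myeloid integrin with few reads, fell in TLX+siCTL (-3.12 ± 0.86, adjusted p = 0.0233) and was at 1.20 ± 0.86 with the siRNA (adjusted p = 0.413), and LYZ, or lysozyme, rose against the controls (1.17 ± 0.34, adjusted p = 0.0261). The prostate markers summed to 39.3 to 41.7, 39.7 to 42.2 and 41.9 to 44.4, with FOLH1 at 0 in every TLX+siTLX library. The sum of VIM, CD44 and AXL, markers of mesenchymal breast cancer cells, was 2788 to 2886 in CTL+siCTL, 3092 to 3133 in TLX+siCTL and 4081 to 4317 in TLX+siTLX. They did not move alike. VIM fell in TLX+siCTL (-0.64 ± 0.06, adjusted p = 8.02e-05) and rose with the siRNA (0.68 ± 0.06, adjusted p = 0.000115), the directions seen for many interferon-stimulated genes. CD44 (0.46 ± 0.05 and 0.31 ± 0.05) and AXL (1.13 ± 0.04 and 0.29 ± 0.04) rose in both steps. A further 5 epithelial and hormone receptor genes, listed as low in the line, had sums of 90.5 to 96.3, 96.2 to 107 and 102 to 112. ERBB2 made up most of these sums and was not low (mean log2 CPM 6.32), followed by EPCAM (4.11). CDH1 (0.81) moved in the same directions as VIM in the 2 steps, at -3.03 ± 0.27 in TLX+siCTL (adjusted p = 4.70e-05) and 2.41 ± 0.27 with the siRNA (adjusted p = 0.000321). PGR was at -2.22 ± 0.59 (adjusted p = 0.0196) and 0.97 ± 0.59 (adjusted p = 0.315), ERBB2 and EPCAM rose in TLX+siCTL (0.22 ± 0.06 and 0.21 ± 0.06), and ESR1 was not called. The part of these markers in the interferon-stimulated genes' differences was not tested. Effective library sizes, recovered from the value of 1 read, were 73.9 to 91.8 M reads. Pairs of libraries within a group differed by a chi-square of 9.63 to 59.9 per row, with the highest values for S9 (59.9 with S7 and 35.1 with S8). These values rest on estimated reads, most of them not whole, and have no repeated library to be set against. Whether replicates are technical repeats was therefore not tested.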

How the data were processed

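The authors deposited log2 CPM values (reads relative to library size) for 27548 Ensembl gene rows and 9 libraries. The lowest value, -5.33, fits a prior count of 2, which understates changes of weakly expressed genes. The build was GRCh38, and edgeR, limma and kallisto 0.44.0 are named without roles, per the submitters' processing notes. Libraries were stranded TruSeq mRNA, per the labels' protocols. A further deposited table gives the authors' signed fold change scores, p-values and false discovery rates, whose test no source used here names, and these false discovery rates served as an alternative. Columns name a group and a running number, so S1 to S9 follow the table.

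Only 30.2% to 31.5% of a library's values were within 0.01 of whole reads, so no count test was run. The log2 values were fitted with limma 3.58.1 in R 4.3.3, in 1 model of 9 libraries with an intensity trend, two-sided, adjusted by Benjamini-Hochberg over 27548 rows at 0.05. The fit was tested on simulated data. The 50 genes and the pathway and marker lists were chosen with earlier results of these data known. Values per library are printed for up to 3 genes per role by change in TLX+siCTL, for STAT2, IRF1, IRF7 and IRF9, and for genes called against the majority in any comparison. Pathway genes are named where they are receptors, kinases or STATs. Others are named where they were called with at least a 2-fold change in either of the first 2 comparisons. IFNK, IFNL2 and IFNL3 were added after their values were seen. One gene of the pathway list is not reported here and was left out of its counts. Genes were placed by GENCODE 29. Promoters are RefSeq's. Alternatives were another log scale, centring, quantile normalization, a filter, no trend, only 2 groups, summed rows and leaving out each library.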

Additional observations from a re-analysis of the deposited data

How the results depend on the processing

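No member changed the direction of a called change under any alternative run. Setting each library's median over all rows equal shifted every log2 fold change by 0.12 in TLX+siCTL against CTL+siCTL, by -0.14 in TLX+siTLX against TLX+siCTL and by -0.03 in TLX+siTLX against CTL+siCTL. Under it the genes' median was -0.61 in the first of these (-0.72 as reported). In TLX+siTLX against TLX+siCTL it was 0.18 (0.32 as reported), with 17 genes up (26), 7 down (4) and 15 pathway genes down (9). With medians over the expressed rows set equal instead, a setting not planned beforehand, the shifts were 0.02, -0.03 and -0.01. That setting gave 24 genes up, 4 down and 11 pathway genes down in TLX+siTLX against TLX+siCTL. Fitting only the 2 groups compared gave 5 genes up in TLX+siCTL (3) and 17 up with the siRNA (26). In each case the cause was not tested. Leaving out 1 library at a time gave 33 to 36 falls, 3 to 4 rises and a median of -0.75 to -0.68 in TLX+siCTL against CTL+siCTL. With the siRNA it gave 21 to 25 rises, 3 to 4 falls and a median of 0.29 to 0.34. Against the controls it gave 26 to 28 falls and 8 to 12 rises, and the F test called 41 to 45 genes. Over all alternatives 3, 12 and 4 genes lost a call and 5, 9 and 6 gained one in the 3 comparisons. The authors' deposited false discovery rates gave 35 falls and 3 rises, 27 rises and 4 falls, and 27 falls and 12 rises. No paired analysis was possible because columns of the table are numbered 1 to 9 across groups and do not carry the replicate numbers of the labels. Read depth limits NR2E1, CMPK2 and the interferon ligands, which have few reads. Levels were also low for CCL5 (mean log2 CPM -0.66), CXCL10 (0.70), APOBEC3B (0.90), SOCS1 (0.92) and PTPN6 (1.02).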
